A study of Triticum aestivum with 12 samples.

Results

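The first 143 Mb of chromosome 2A of bread wheat (Triticum aestivum) was described as 1 block of neighbouring genes. Its members were the genes that the deposited count table places on 2A with an end at or below position 143276770 and with 10 or more counts summed over the 12 libraries. They numbered 1274, of 88429 genes with that many counts in the whole table, and the other 698 genes listed in the segment were under the count limit. The first member started at position 249825, in the coordinates of the table, whose genome build no source used here names. The end of the segment was chosen from the measured values of line C40, so the level of its genes in C40 is a description. Counts of members past a threshold in C40 are printed beside the share of all genes, and nothing is read from them.

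RNA came from shoots, the upper part of untreated seedlings without roots, 2 months after germination. The tested groups were C40, C20 and C22, 3 transgenic lines overexpressing TaSIP1ΔC, as the labels name the transgene (they also write C40 as 40C), and the group they were set against was wild type (WT). Each group had 3 libraries, and library totals ranged from 25622422 to 43532179 counts. The labels name no promoter and do not say how many transformation events or plants stand behind a line, and they do not say that replicates came from separate plants, so p-values measure the spread between these libraries, which may be technical. By the series' title, TaSRO1 binds and restrains TaSIP1, and the pair acts on mitochondrial retrograde signalling and on salt tolerance.

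Bread wheat carries A, B and D subgenomes, so most genes on the short arm of 2A have closely related copies, called homoeologs, on 2B and 2D. Transcripts of such copies are counted separately only where reads differ between them. A chromosome segment holds genes of unrelated function. The segment described here holds, among others, genes for the small subunit of Rubisco, the enzyme that fixes carbon dioxide, for ribosomal proteins, for cytochrome P450 oxidases and for NB-ARC proteins, the receptors that detect pathogen effectors.

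Of the 1274 members, 829 had a mean of at least 1 CPM (a gene's counts relative to its scaled library total) in the 9 libraries of C20, C22 and WT, and ratios were computed for these. Their median level was 2.52, 2.94 and 2.79 CPM in C40 replicates 1 to 3. It was 5.15, 5.08 and 5.62 CPM in C20, 5.08, 5.37 and 5.30 CPM in C22, and 5.03, 5.02 and 4.97 CPM in WT. The 3 C40 libraries lay close together and below the other 9, and C20 and C22 lay beside WT. As a share of all counts, with no scaling, all members together took 0.892%, 0.856% and 0.836% in C40, 1.87%, 1.61% and 2.10% in C20, 1.79%, 1.67% and 1.80% in C22, and 2.12%, 2.11% and 2.39% in WT. The rest of 2A did not set C40 apart in the same way, with 4.28% to 4.66% of counts in C40, 4.21% to 5.20% in C20, 4.30% to 4.68% in C22 and 4.93% to 5.26% in WT.

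The typical member stood at about 0.5 of its level in the other lines. The median ratio of C40 to the mean of C20 and C22 was 0.507 (log2 -0.98), and the middle 50% of members lay between 0.421 and 0.590. Of the 829 members, 468 (56.5%) lay between 0.4 and 0.6, and 797 (96.1%) lay below 1. The same ratio had a median log2 of -0.03 over the 2331 genes of the rest of 2A and of -0.03 over all 58656 genes outside the segment. Against WT the members' median was 0.536 (log2 -0.90), with a wider middle 50% of 0.343 to 0.813. In 361 members (43.5%) all 3 C40 libraries lay below all 6 libraries of C20 and C22, where 1.76% of all genes did. That background is printed beside a count that the choice of the segment used, and nothing is read from it.

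**Figure D1:**
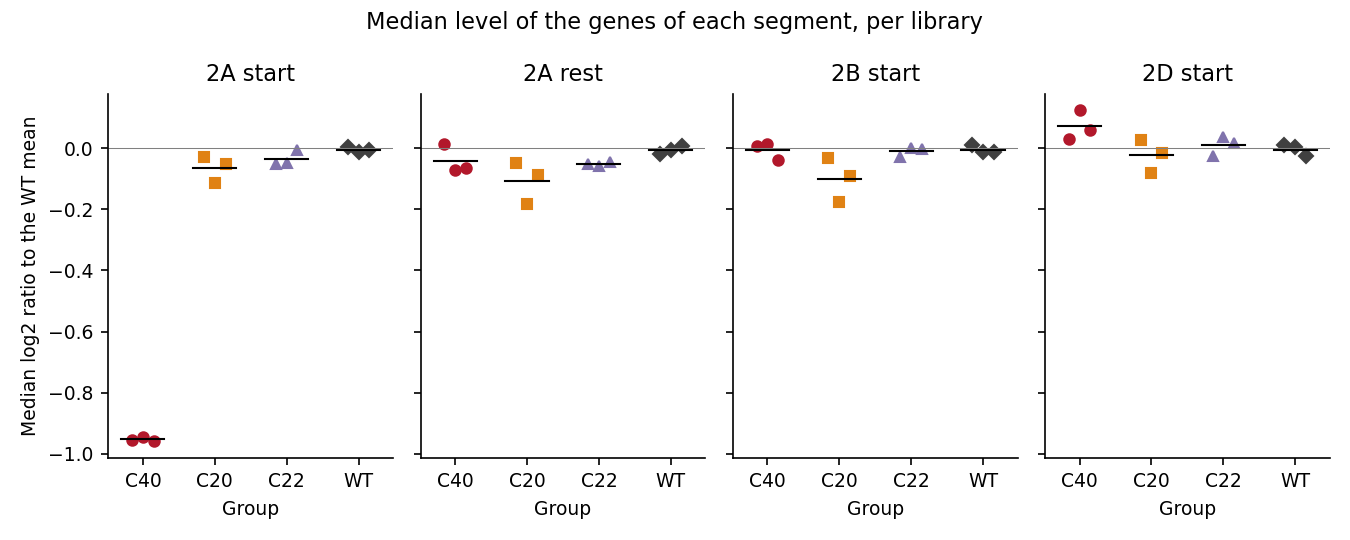
Median log2 ratio of the genes of each segment to their WT mean (y axis), for each library of C40, C20, C22 and WT (x axis), in the 2A start, the rest of 2A and the 2B and 2D starts. Points are libraries and lines are group means. The C40 libraries sit at -0.96, -0.94 and -0.96 in the 2A start and near 0 in the other segments.

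The 3 C40 libraries agreed in this level although they differed widely in other genes. The median log2 ratio to WT was -0.96, -0.94 and -0.96 in C40 replicates 1 to 3, against -0.03, -0.11 and -0.05 in C20 and -0.05, -0.05 and -0.01 in C22. Genes of cell division (772 genes of histones, cyclins and replication, summed per library) were at 3101, 9823 and 14814 CPM in C40, at 9011, 21107 and 3448 CPM in C20, at 10673, 16240 and 11187 CPM in C22 and at 3317 to 3427 CPM in WT. C40 replicate 1 and C20 replicate 3 were thus at the WT level for these genes, while the other libraries of the lines were above it. Relative to C20 and C22 the members' medians in C40 replicates 1 to 3 were -1.03, -0.99 and -0.96.

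The reduced level was found in every bin from the start of the chromosome to the end of the segment. In bins of 10 Mb counted back from the end of the segment, all 15 medians of the log2 ratio of C40 to the mean of C20 and C22 lay between -1.14 and -0.85, with 23 to 98 genes in a bin. Single genes departed from it, among them the second member at 1 CPM or more, TraesCS2A01G000200 at 259156, a response regulator gene at 1.04 of C20 and C22. The bin just inside the end was at -1.14 (56 genes) and the bin just outside it was at 0.15 (34 genes). The 46 bins of at least 20 genes in the rest of 2A lay between -0.26 and 0.15. Over the whole genome, 14 bins of 10 Mb wholly inside the segment had medians of -1.22 to -0.88, and the 1191 other bins with at least 20 genes, leaving out the bin that holds the end, had medians of -0.36 to 0.22.

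**Figure D2:**
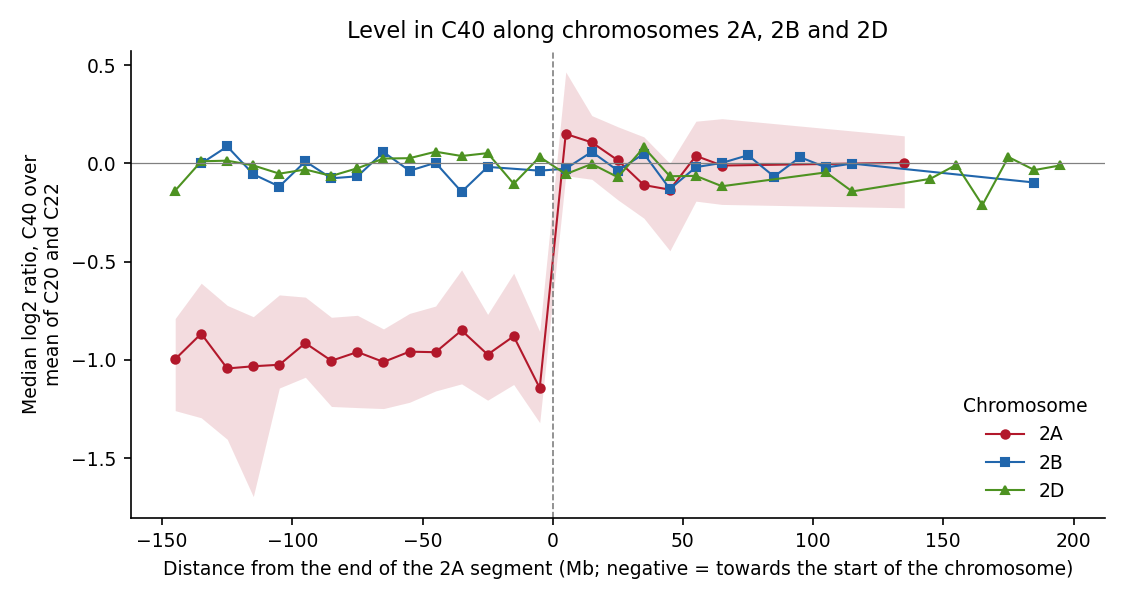
Median log2 ratio of C40 to the mean of C20 and C22 in bins of 10 Mb (y axis), by distance from the end of the 2A segment (x axis, Mb), for chromosomes 2A, 2B and 2D. Bins with at least 20 genes are shown, and the band marks the middle 50% of genes on 2A. The 2A line lies between -1.14 and -0.85 left of the dashed line and near 0 right of it, while the 2B and 2D lines stay near 0 on both sides.

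The position of the end was placed from the genes on either side of it, whose values are given as a description. The last 5 members at 1 CPM or more had ratios of 0.581 (TraesCS2A01G183000), 0.344 (TraesCS2A01G183100), 0.348 (TraesCS2A01G183200), 0.410 (TraesCS2A01G183400) and 0.539 (TraesCS2A01G183600) to the mean of C20 and C22. TraesCS2A01G183600, on the minus strand at 143276273 to 143276770 and described with a WPP domain, had 2.89, 4.51 and 4.53 CPM in C40, 7.41, 7.91 and 8.91 CPM in C20, 6.97, 6.28 and 7.07 CPM in C22, and 7.09, 6.94 and 6.93 CPM in WT. Its C40 libraries were all below the other 9.

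The first 5 such genes outside the segment began with one at 143432070, with an identifier outside the reference style and a ratio of 0.679, close to the highest ratio just inside. The next 4 were at 4.65 (TraesCS2A01G183900), 1.20 (TraesCS2A01G184000), 1.51 (TraesCS2A01G184200) and 2.49 (TraesCS2A01G184400, a FYVE zinc finger gene, a domain that binds a membrane lipid). TraesCS2A01G184400 had 22.8, 16.4 and 13.4 CPM in C40, 7.52, 4.81 and 7.11 CPM in C20, 8.68, 6.98 and 6.88 CPM in C22 and 11.5, 13.0 and 11.7 CPM in WT. All 3 of its C40 libraries were above all libraries of the other groups. Its position was used to place the edge, so no test is given.

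Relative to C20 and C22, the median differed little with abundance, length or annotation. With the 829 members split into 4 equal groups by their mean CPM in the other libraries, the median log2 ratio to C20 and C22 was -1.01, -0.97, -0.95 and -1.03 from the lowest group to the highest. Relative to WT the same groups were at -0.67, -0.87, -0.86 and -1.25, lowest among the most abundant members. The width of the middle 50% of the ratios to C20 and C22 narrowed with abundance, at 0.58, 0.54, 0.46 and 0.39 on the log2 scale. By gene length the 4 groups had medians of -1.01, -0.98, -0.98 and -0.94 from short to long. Members with a described domain were at -0.97 (581 genes) and those without at -1.01 (248 genes). Members with a reference identifier were at -0.97 (755 genes) and those with an identifier outside the reference style at -1.05 (74 genes). The 445 members below 1 CPM summed to 101 ± 13.3 CPM in C40, 135 ± 13.4 CPM in C20, 164 ± 6.83 CPM in C22 and 122 ± 4.83 CPM in WT (SD, n = 3 each), so their sum in C40 was above 0.507 of that in either other line. These members were set apart by a low level in C20, C22 and WT, with no limit on C40. Part of the higher share in C40 can thus be built in by the rule, and nothing is read from it.

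**Figure D3:**
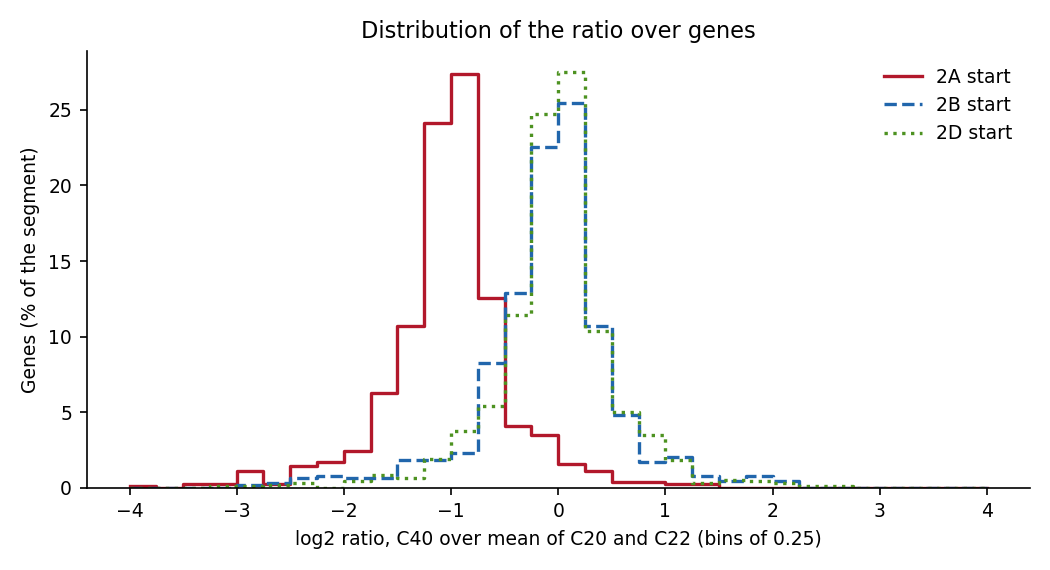
Distribution over genes of the log2 ratio of C40 to the mean of C20 and C22 (x axis, bins of 0.25) as a percentage of the genes of each segment (y axis), for the 2A, 2B and 2D starts. The 2A curve has the width of the other curves and peaks 1 log2 unit to their left, with 27.4% of its genes between -1 and -0.75.

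Gene groups of unrelated function each had a lower median than their counterparts outside the segment, by -0.83 to -1.16 on the log2 scale in the lists with 5 or more members at 1 CPM. For each list the median log2 ratio of C40 to the mean of C20 and C22 is given for the members at 1 CPM or more and for all such genes outside the segment. The 13 ribosomal protein genes, parts of the translation machinery, were at -1.03, against -0.03 for 620 outside. The 25 genes of RNA and protein housekeeping (RNA-binding, proteasome, ubiquitin, translation and chaperone domains) were at -0.94, against 0.00 for 2181 outside. The 34 transcription factor genes were at -0.89, against 0.03, the 11 transporters at -0.98, against 0.03, and the 18 glycosyltransferases at -0.95, against -0.04. The 15 cytochrome P450 genes, oxidases of plant secondary metabolism, were at -1.08, against -0.15 outside. The 9 F-box genes, adaptors for protein degradation, were at -1.12, against 0.01, the 24 NB-ARC genes at -0.82, against 0.03, and the 33 protein kinase genes at -0.78, against 0.05. In the smaller lists the difference was -0.40 for 3 genes of histones and the cell cycle, -0.78 for 4 peroxidases, -1.38 for 2 polyketide synthases and -0.23 for 1 glutathione transferase. Over all 829 members the median was -0.98.

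**Figure D4:**
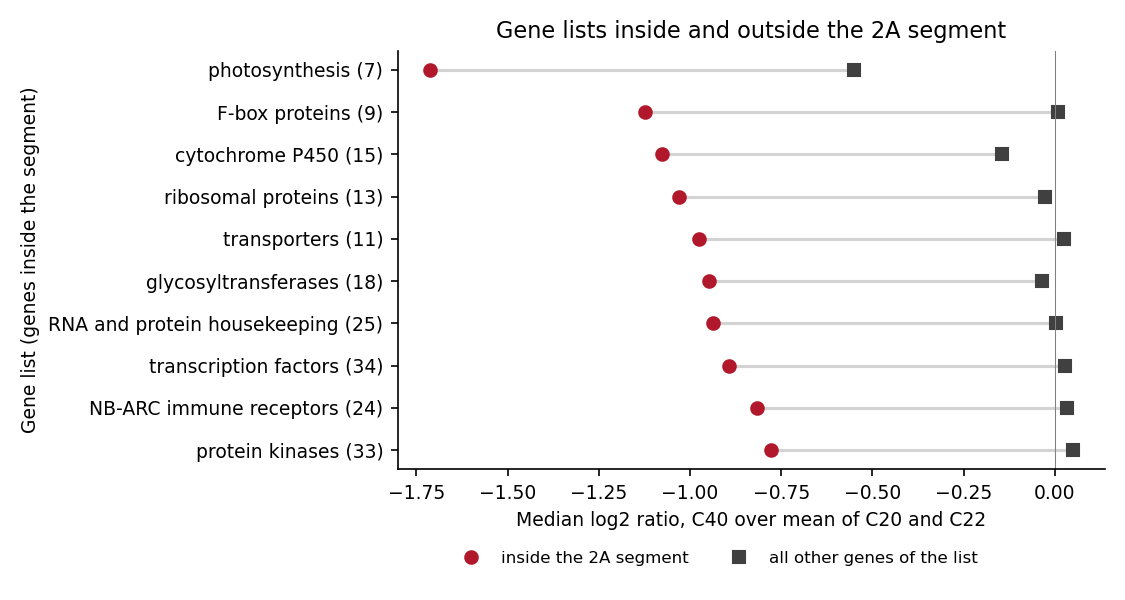
Median log2 ratio of C40 to the mean of C20 and C22 (x axis) for gene lists with at least 5 members at 1 CPM or more (y axis, number of members in parentheses). Circles are members of the 2A segment and squares are all other genes of the list. In each list the circle lies left of the square, by 0.83 log2 units for protein kinases and by 1.16 for photosynthesis.

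Among the lists with 5 or more members at 1 CPM, photosynthesis had the lowest median. Its 7 members were at a median log2 ratio of -1.71 to C20 and C22, against -0.55 for 238 photosynthesis genes outside the segment, a difference of -1.16. Summed over the list, C40 libraries held 1066 to 1963 CPM, C20 libraries 1424 to 9176 CPM, C22 libraries 2338 to 4003 CPM and WT libraries 7225 to 11356 CPM. The photosynthesis genes outside the segment were also lower in C40 than in the other lines, and how much of the level of the 7 members goes with that was not tested. By edgeR's quasi-likelihood test against WT at an adjusted p of at most 0.05, 0 of the 7 fell in C20 and 2 fell in C22, where 1.02% of all genes fell in C20 and 8.56% in C22. In C40 against WT, a contrast that the choice of the segment used, 7 of 7 were past the threshold as lower, beside 8.80% of all genes.

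A cluster of 5 Rubisco small subunit genes, TraesCS2A01G066800 to TraesCS2A01G067200 at 30047814 to 30092099, made up most of the list. Its median ratio of C40 to C20 and C22 was 0.241 (log2 -2.05), against a median log2 of -0.79 for the 13 such genes outside the segment. TraesCS2A01G066800 had 521, 342 and 308 CPM in C40, 1489, 374 and 2468 CPM in C20, 1269, 801 and 1156 CPM in C22, and 2215, 2129 and 3125 CPM in WT. The C40 libraries were below all C22 and WT libraries but overlapped C20, whose replicate 2 stood at the C40 level. TraesCS2A01G111300, which encodes PsbX, a small subunit of photosystem II, had 342, 278 and 218 CPM in C40, 986, 357 and 2331 CPM in C20, 746, 412 and 628 CPM in C22, and 1139, 1014 and 2010.2 CPM in WT. For this gene all C40 libraries were below the other 9, C20 replicate 2 by the smallest margin.

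Other abundant members below 0.5 of WT were TraesCS2A01G114400 (subunit N of photosystem I, 0.278 of WT and 0.451 of C20 and C22) and TraesCS2A01G035100 (CP12, a regulator of Calvin cycle enzymes, 0.218 of WT and 0.385 of C20 and C22). The member farthest below the other lines was TraesCS2A01G075000, a cupin gene at 33270378 to 33271019. It had 16.6, 11.6 and 5.53 CPM in C40, 279, 144 and 522 CPM in C20, 34.5, 11.8 and 50.3 CPM in C22, and 519, 600 and 746 CPM in WT. It was already low in C22, where it overlapped C40, and far higher in C20 and WT.

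A second run of neighbours with a low ratio held 11 genes related to the Ole e I pollen proteins, TraesCS2A01G061800 to TraesCS2A01G063100 at 27619651 to 27940739. Its median ratio of C40 to C20 and C22 was 0.242 (log2 -2.05), against -0.99 for the 40 such genes outside the segment, so its distance from them was -1.06. TraesCS2A01G061800 had 0.0308, 4.87 and 0.714 CPM in C40, 5.08, 36.1 and 21.1 CPM in C20, 2.44, 13.96 and 11.9 CPM in C22, and 29.7, 15.9 and 1.10 CPM in WT. Its libraries were spread widely within each group, so the groups overlap. TraesCS2A01G052500, an amino acid transporter gene, had 5.11, 2.65 and 2.83 CPM in C40, 37.9, 5.52 and 52.8 CPM in C20, 37.0, 29.5 and 39.1 CPM in C22, and 22.2, 13.8 and 19.5 CPM in WT. All its C40 libraries were below the other 9. TraesCS2A01G042300, of the histidine phosphatase superfamily, had 0 counts in the 3 C40 libraries and 77 in those of C20 and C22, which is at least 13.0-fold lower in C40 with 3 counts over the group as the floor.

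Further runs of neighbouring genes with 1 domain differed in their distance from genes outside the segment. Runs were taken as 3 or more members sharing a domain with at most 5 genes between them. The difference in median log2 ratio was -1.06 for 4 glycosyl hydrolase family 1 genes, -1.29 for 4 D-isomer specific 2-hydroxyacid dehydrogenase genes, and -1.18, -1.08 and -0.81 for 3 runs of NB-ARC genes. It was -1.05 for 3 histidine phosphatase genes, -0.84 for 3 tyrosine kinase genes, and -0.68 and -0.66 for runs of 4 and 3 protein kinase genes. For 6 genes with a leucine rich repeat N-terminal domain it was -0.62. That run holds the run of 4 protein kinase genes, so these values share genes. For 3 glycosyltransferase genes of the UDP-glucosyl family, TraesCS2A01G028400 to TraesCS2A01G028700, the difference was -0.08.

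The ratios to WT were spread more widely than the ratios to C20 and C22. A member was first said to escape the reduction where its C40 mean was at least 0.5 of its WT mean, and 451 of 829 (54.4%) did, against 88.7% of the rest of 2A, 83.9% of the 2B start, 87.9% of the 2D start and 88.0% of all genes. The limit of 0.5 lies near the members' median, so small differences decide on which side a gene falls. The 10 most abundant of these members held several genes of translation that were higher in the other lines than in WT. TraesCS2A01G083000, with the GTP-binding domain of elongation factor Tu, had 67.1, 97.7 and 112 CPM in C40, 147, 231 and 156 CPM in C20, 137, 169 and 139 CPM in C22, and 122, 93.1 and 94.9 CPM in WT. It overlapped WT in C40 but was 0.566 of C20 and C22, with no overlap.

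The same order held for TraesCS2A01G170800 (ribosomal protein L18e/L15), at 1.004 of WT and 0.458 of C20 and C22, for TraesCS2A01G108900 (ribosomal protein L19e), at 0.832 and 0.484, and for TraesCS2A01G125200 (EF-1 guanine nucleotide exchange), at 1.09 and 0.542. TraesCS2A01G094200, a second L19e gene, was at 1.17 of WT and 0.633 of C20 and C22. TraesCS2A01G082100, a haem peroxidase gene, had 65.5, 99.0 and 91.6 CPM in C40, 153, 160 and 140 CPM in C20, 166, 155 and 155 CPM in C22, and 131, 121 and 133 CPM in WT, and its C40 libraries were below all others. At 1.5 of WT or more in C40 were 75 members (9.05%), of which 63 were still below the mean of C20 and C22. The share at 1.5 of WT or more was 23.0% in the rest of 2A, 26.7% in the 2B start and 30.5% in the 2D start. It was 23.8% for genes on none of 2A, 2B and 2D. TraesCS2A01G161500, a WRKY transcription factor gene of a family known for stress responses, had 9.76, 10.8 and 10.5 CPM in C40, 54.3, 12.7 and 100.1 CPM in C20, 16.8, 13.99 and 21.2 CPM in C22, and 2.56, 3.08 and 3.6004 CPM in WT. Its C40 libraries were above every WT library and below every library of the other lines.

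Few members stood at the level of the other lines. With escape taken as a C40 mean at or above the mean of C20 and C22, a rule added after the values were seen, 32 of 829 members (3.86%) escaped, against 45.4% of all genes. They were less abundant than the rest, at a median of 2.82 CPM in the other libraries, against 5.55 CPM for the 797 below, and their highest was at 38.7 CPM. Of the 4 groups by abundance, the lowest held 16 and the highest 1. The C20 and C22 libraries entered both this abundance and the ratio, so part of the difference can be built in by the rule. Of the 32, 28 were also at 0.5 of WT or more. The share of genes at or above 2 times the median of their own segment was 3.38% for the 2A start, 3.17% for the rest of 2A, 4.66% for the 2B start, 3.63% for the 2D start and 2.71% for all genes outside the segment. The last escaping member started at 104450076, and the 161 members at 1 CPM or more after it had a median log2 ratio of -1.001 and a highest of -0.05.

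Among the members at 1 CPM or more, the 2 largest ratios to C20 and C22 belonged to a peroxidase gene and a cytochrome P450 gene. TraesCS2A01G107600, a peroxidase gene, had 6.19, 4.74 and 5.71 CPM in C40, 0.803, 0.679 and 0.855 CPM in C20, 2.47, 1.55 and 5.63 CPM in C22, and 0.440, 0.314 and 0.103 CPM in WT, a ratio of 2.73 to C20 and C22. C40 overlapped the other lines only in C22 replicate 3. TraesCS2A01G019400, a cytochrome P450 gene, had 6.86, 8.31 and 10.6 CPM in C40, 0.840, 1.62 and 0.585 CPM in C20, 2.09, 7.83 and 5.96 CPM in C22, and 24.0, 4.18 and 14.2 CPM in WT. The ratio of its C40 mean was 2.70 to C20 and C22 and 0.609 to WT. Its C40 libraries were above all C20 libraries and overlapped C22 and WT. A second P450 gene, TraesCS2A01G053300, was at 1.84, and TraesCS2A01G110300, of the thaumatin family of pathogenesis-related proteins, at 1.76.

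Neighbouring members with ratios near or above 1 were found in a run of 5 genes of the alpha/beta hydrolase fold, a large enzyme family, TraesCS2A01G143000 to TraesCS2A01G143500 at 88117701 to 88300529. The run's median log2 ratio to C20 and C22 was 0.07, with a range of -0.39 to 0.76, against 0.11 for 95 such genes outside the segment. Relative to WT the run's median log2 was -0.75 in C40, -0.92 in C20 and -1.10 in C22, so it was below WT in each line. TraesCS2A01G143200 had 11.0, 5.63 and 4.59 CPM in C40, 3.54, 3.78 and 9.45 CPM in C20, 10.03, 5.21 and 8.40 CPM in C22, and 8.44, 8.63 and 8.20 CPM in WT. Its C40 libraries overlapped each other group, C40 replicate 1 being the highest of all. TraesCS2A01G143100 was at 1.72, 2.55 and 2.05 CPM in C40, 1.53, 0.856 and 1.21 CPM in C20, 1.45, 1.07 and 1.21 CPM in C22, and 4.76, 1.76 and 1.37 CPM in WT. It was 1 of 2 members at 1 CPM or more with all 3 C40 libraries above all 6 of C20 and C22 (0.241%, against 2.77% of all genes), the other being TraesCS2A01G156700, which has no described domain. The run was singled out after its values were seen. TraesCS2A01G143400, a ZIP zinc transporter gene that lies within it, was at 3.57, 3.83 and 6.99 CPM in C40, 1.68, 1.80 and 16.2 CPM in C20, 21.3, 6.47 and 15.5 CPM in C22, and 57.3, 43.6 and 53.7 CPM in WT.

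Of the 445 members below 1 CPM in the other libraries, 41 had a C40 mean at least 2 times that of C20 and C22 with more than 3 counts. The 445 were limited to a low level in the other libraries but not in C40, which favours such ratios. The share among all genes below 1 CPM was not computed, so nothing is read from the count. Of the 41, 2 are given here, chosen after their values were seen. TraesCS2A01G049100, at 19028863 to 19030629 with no described domain, had 0.739, 0.425 and 1.46 CPM in C40 and 0 counts in the other 9 libraries. With 84 counts in all, it met the limit of 10 counts through C40 alone, so a higher level there was fixed by that limit. TraesCS2A01G057100, an ABC transporter gene at 24135554 to 24145050, had 0.923, 1.01 and 1.24 CPM in C40, 0, 0.0590 and 0 CPM in C20, 0.225, 0.284 and 0.237 CPM in C22, and 0.137, 0.0628 and 0.103 CPM in WT. Its C40 libraries were above all others.

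**Figure D5:**
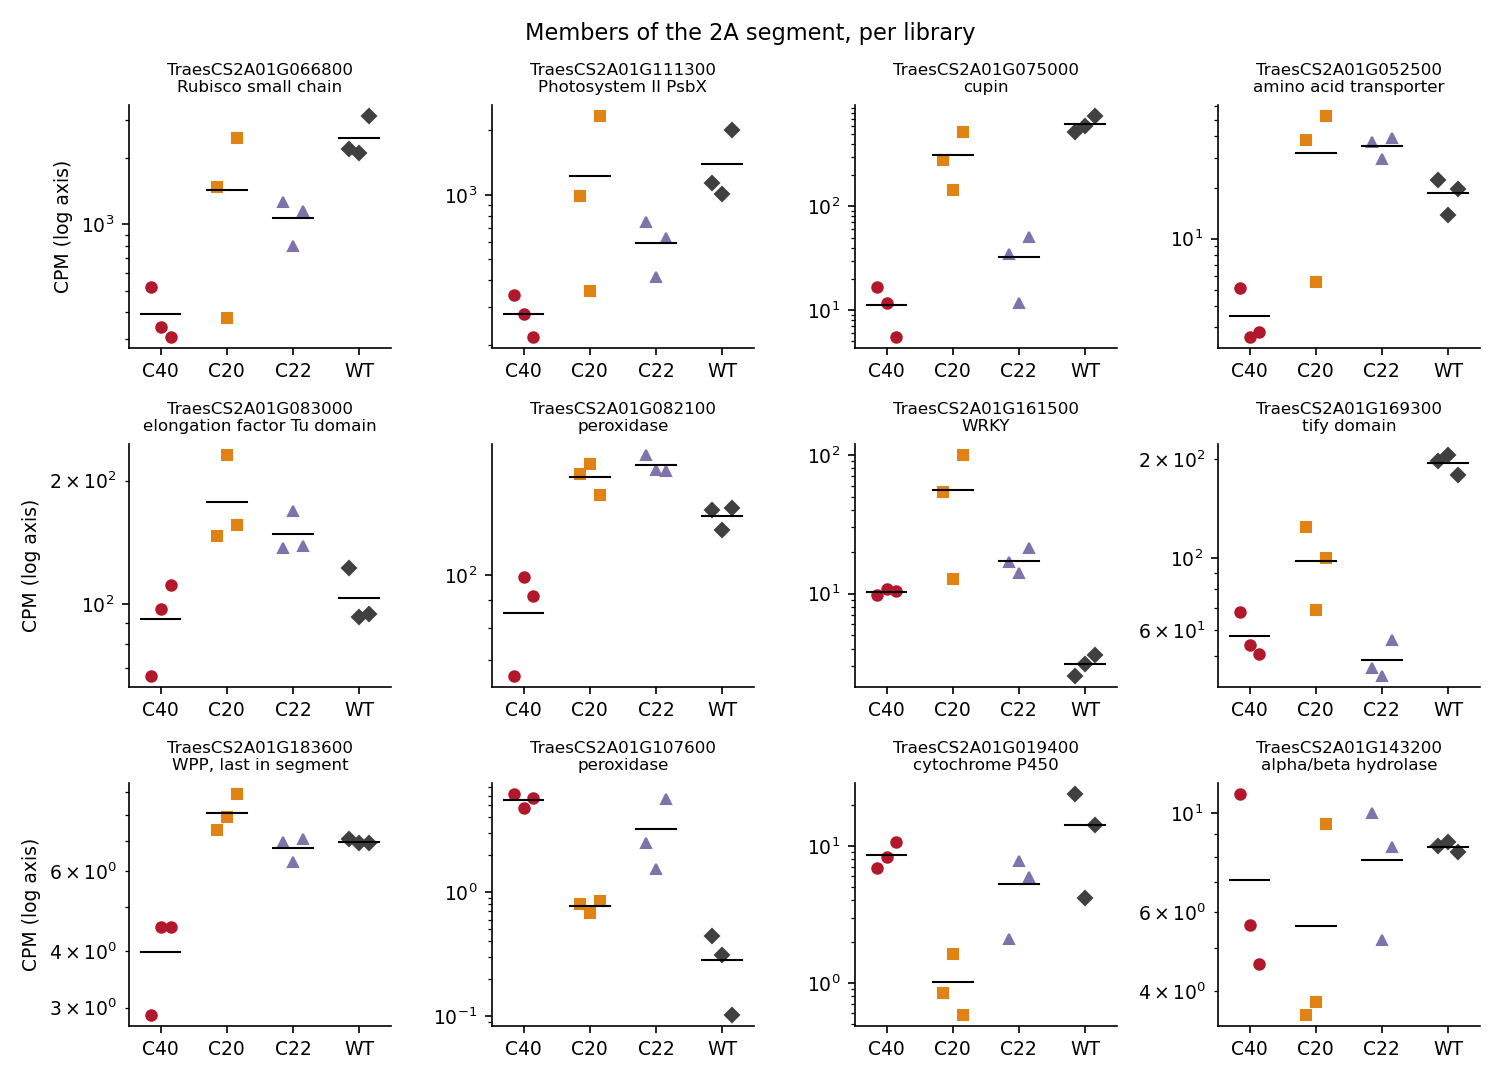
Level of 12 members in CPM (y axis, log scale that differs between panels) in each library of C40, C20, C22 and WT (x axis). Points are libraries and lines are group means. The first 9 panels show members whose C40 mean is below the mean of C20 and C22, among them the last member of the segment, and the last 3 show members that escape.

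The comparisons of C20 and of C22 with WT were not used to choose the segment and were tested. In C20 against WT, 37 of 1047 tested members (3.53%) changed, 26 up and 11 down, against 2.46% of all genes tested, 1.44% up and 1.02% down. The rise with the lowest adjusted p was that of TraesCS2A01G104600, a gene with a probable zinc-ribbon domain. It had 28.4, 6.26 and 60.4 CPM in C20 and 0.440, 0.314 and 0.789 CPM in WT, a log2 fold change of 5.94 ± 0.76 (SE, edgeR, adjusted p = 0.0078), a call lost in 2 of 19 alternatives, with adjusted p up to 0.0596. All C20 libraries were above all WT libraries. TraesCS2A01G022800, a P450 gene, had 0.584, 0.0295 and 0.405 CPM in C20 and 6.65, 10.1 and 6.86 CPM in WT, and fell by 4.56 ± 0.64 on the log2 scale (SE, edgeR, adjusted p = 0.00997), with no overlap, a call lost in 1 of 19 alternatives with an adjusted p of 0.06. TraesCS2A01G019400, the P450 gene that escaped in C40, fell in C20 by 3.77 ± 0.68 (SE, edgeR, adjusted p = 0.0235), a call lost in 4 of 19 alternatives, with adjusted p up to 0.0864.

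The count for C20 depended strongly on single libraries. Leaving out C20 replicates 1, 2 or 3 gave 7, 66 or 191. Leaving out WT replicates 1, 2 or 3 gave 2, 1 or 3. Leaving out C22 replicates 1, 2 or 3 gave 14, 22 or 14, and leaving out C40 replicates 1 or 2 gave 101 or 19. DESeq2 called 176.

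In C22 against WT, 195 of 1047 members (18.6%) changed, 101 up and 94 down, against 18.0% of all genes, 9.48% up and 8.56% down, so the segment changed in C22 about as often as the genome did. TraesCS2A01G169300, with the tify domain of repressors of jasmonate signalling, had 46.0, 43.6 and 56.2 CPM in C22 and 198, 207 and 179 CPM in WT, and fell by 2.002 ± 0.25 on the log2 scale (SE, edgeR, adjusted p = 0.00261). TraesCS2A01G119600, with the CCT motif of clock and flowering regulators, had 1.48, 0.884 and 1.18 CPM in C22 and 9.02, 10.7 and 9.29 CPM in WT, and fell by 3.03 ± 0.39 (SE, edgeR, adjusted p = 0.00293). Neither overlapped between the groups. TraesCS2A01G034000, without a described domain, rose by 7.43 ± 0.84 in C22 and by 6.34 ± 0.83 in C20 (SE, edgeR, adjusted p = 0.00202 and 0.00825), and both comparisons share the WT libraries. Its call in C20 was lost in 2 of 19 alternatives, with adjusted p up to 0.0642. The count for C22 became 76, 59 or 77 when C22 replicates 1, 2 or 3 were left out, 68, 49 or 80 when WT replicates 1, 2 or 3 were, and 310 when C20 replicate 2 was. DESeq2 called 293.

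In C40 against WT, 453 of 1047 members (43.3%) passed the threshold, 33 higher and 420 lower, beside 18.6% of all genes, a contrast that the choice of the segment used. Without C40 replicate 2 or 3 the count was 277 or 234, and without WT replicate 2 it was 272. By list in the same contrast, beside 8.80% of all genes lower and 9.81% higher, 11 of 31 tested NB-ARC members were lower and 2 higher, 13 of 44 kinases were lower and 2 higher, 16 of 45 transcription factors were lower and 2 higher, and 11 of 26 P450 genes were lower and 1 higher. Of 13 ribosomal protein genes 1 was lower and 0 higher. Of the 5 polyketide synthase members, which belong to the chalcone synthase family, 4 were tested and all 4 were lower, at 0.0621 to 0.164 CPM in sum in C40, 0 to 3.72 CPM in C20, 0.0321 to 0.615 CPM in C22 and 9.90 to 22.3 CPM in WT.

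The start segments of 2B and 2D, taken up to the same position, did not move with 2A. The median log2 ratio of C40 to the mean of C20 and C22 was -0.02 over 644 genes of 2B, with a middle 50% of -0.32 to 0.21, and 0.00 over 937 genes of 2D, with a middle 50% of -0.25 to 0.20. In bins of 10 Mb the medians were -0.15 to 0.09 on 2B (13 bins) and -0.14 to 0.06 on 2D (15 bins). The libraries' medians relative to WT were 0.01, 0.01 and -0.04 on 2B and 0.03, 0.12 and 0.06 on 2D in C40, against -0.03, -0.18 and -0.09 on 2B and 0.03, -0.08 and -0.01 on 2D in C20. In C22 they were -0.03, 0.00 and -0.00 on 2B and -0.03, 0.04 and 0.02 on 2D. On 2D the C40 libraries were above the C20 libraries by small margins and overlapped C22, and on 2B the groups overlapped. Whether individual homoeologs of members rose could not be read, since no table that pairs homoeologs was used here.

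Gene by gene, the 2B and 2D starts changed in C40 against WT about as often as all genes did. In C40 against WT, 170 of 897 genes of the 2B start (19.0%) changed, 83 up and 87 down, and 239 of 1211 of the 2D start (19.7%), 153 up and 86 down, against 18.6% of all genes, 9.81% up and 8.80% down. The median fitted log2 fold change was 0.19 on 2B and 0.20 on 2D, against 0.11 over all genes tested and -0.86 over the 2A members. Against the mean of C20 and C22, 19 of 897 genes of 2B changed (2.12%), 16 up and 3 down, and 19 of 1211 of 2D (1.57%), 19 up and 0 down, against 1.48% of all genes, 1.05% up and 0.429% down. All genes include the 2A members. Of the genes on none of 2A, 2B and 2D, 1.23% changed, 1.03% up and 0.197% down, so both starts were above that share. At an unadjusted p below 0.05 in edgeR there were 123 on 2B (13.7%) and 160 on 2D (13.2%). The share was 12.05% of all genes and 11.2% of those on none of 2A, 2B and 2D. DESeq2 called 46 on 2B and 66 on 2D, 8 of them down on each, and its share of all genes is not given here.

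These counts moved with single libraries. On 2B against WT, leaving out C20 replicates 2 or 3 gave 308 or 264, leaving out C40 replicates 2 or 3 gave 101 or 61, and leaving out WT replicates 1, 2 or 3 gave 88, 66 or 83. On 2D the same comparison gave 393 with C20 replicate 2 left out, 124 or 75 with C40 replicates 2 or 3 left out, and 111, 86 or 109 with WT replicates 1, 2 or 3 left out. Against the other lines 2B gave 33 with C20 replicate 2 left out, 6, 5 or 7 with C22 replicates 1, 2 or 3 left out, 10, 4 or 5 with C40 replicates 1, 2 or 3 left out, and 12 with WT replicate 2 left out. For 2D these were 40 with C20 replicate 2 left out, 3, 4 or 5 for C22 replicates 1, 2 or 3, 8, 4 or 6 for C40 replicates 1, 2 or 3, and 10 or 11 for WT replicates 1 or 2.

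On 2B, 2 NB-ARC genes were among the genes that rose in C40 against the other lines with the lowest adjusted p. TraesCS2B01G043700, an NB-ARC gene at 20364215 to 20367961, had 7.51, 8.80 and 11.3 CPM in C40, 2.70, 0.679 and 1.39 CPM in C20, 3.18, 2.40 and 3.31 CPM in C22, and 1.21, 0.942 and 1.37 CPM in WT. It rose by 2.08 ± 0.33 on the log2 scale against the mean of C20 and C22 and by 2.97 ± 0.42 against WT (SE, edgeR, adjusted p = 0.015 and 0.00277), with no overlap. The call against C20 and C22 was lost in 2 of 19 alternatives, with adjusted p up to 0.0639. TraesCS2B01G085000, a second NB-ARC gene, had 33.5, 22.2 and 21.6 CPM in C40, 13.7, 15.9 and 12.1 CPM in C20, 10.2, 10.6 and 10.5 CPM in C22, and 19.3, 21.8 and 20.7 CPM in WT. It rose by 1.09 ± 0.16 against the other lines (SE, edgeR, adjusted p = 0.0132), while its difference from WT, 0.32 ± 0.20, did not pass (adjusted p = 0.258).

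On 2D the rise with the lowest adjusted p was that of TraesCS2D01G193400, a gene of the DUF260 family at 138515840 to 138516685. It had 25.1, 22.2 and 22.01 CPM in C40, 6.54, 4.28 and 7.78 CPM in C20, 8.74, 5.999 and 9.15 CPM in C22, and 5.11, 5.75 and 4.49 CPM in WT, a log2 fold change of 1.72 ± 0.20 against C20 and C22 (SE, edgeR, adjusted p = 0.0035). TraesCS2D01G051800, an ABC transporter gene, rose by 2.94 ± 0.45 against C20 and C22 (SE, edgeR, adjusted p = 0.0137), a call lost in 1 of 19 alternatives, with adjusted p of 0.0579. TraesCS2D01G029600, a terpene synthase gene, had 3.601, 7.001 and 8.20 CPM in C40, 0.402, 0.148 and 0.720 CPM in C20, 1.29, 1.83 and 2.18 CPM in C22, and 0 counts in WT, which is at least 203-fold higher in C40 than in WT with 3 counts over the group as the floor. Each of these had all C40 libraries above all others.

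A gene with a CCT motif was among the falls with the lowest adjusted p in C40 against WT on both 2B and 2D. TraesCS2B01G140300 had 1.63, 2.22 and 1.40 CPM in C40, 7.05, 6.85 and 8.05 CPM in C20, 1.96, 2.84 and 2.63 CPM in C22, and 17.2, 21.3 and 14.8 CPM in WT, and fell by 3.34 ± 0.24 against WT (SE, edgeR, adjusted p = 0.000329). TraesCS2D01G121400 had 0.769, 0.851 and 0.404 CPM in C40 and 9.92, 10.8 and 7.78 CPM in WT, and fell by 3.81 ± 0.44 (SE, edgeR, adjusted p = 0.00146). The 2A member TraesCS2A01G119600 was at 0.4001, 0.883 and 0.404 CPM in C40 and 2.63, 2.45 and 5.40 CPM in C20. In TraesCS2B01G140300, C40 overlapped C22 but was below all C20 and WT libraries.

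Summed over all genes of the segment, the 2B start held 12486 ± 1639 CPM in C40 against 23512 ± 3559 CPM in WT (SD, n = 3 each), and the 2D start 16244 ± 1506 CPM against 27707 ± 4216 CPM. Both had p = 0.1 by a two-sided exact permutation test over libraries, the smallest p that 3 against 3 allows, and an adjusted p of 0.2 over 4 tests. Against C20 and C22 together the sums were 12486 ± 1639 CPM in C40 and 14953 ± 4725 CPM in the other lines on 2B, and 16244 ± 1506 CPM and 18594 ± 5230 CPM on 2D (SD, n = 3 and 6), with p = 0.476 and 0.548 by the same exact test and an adjusted p of 0.548 for both. A lower sum was not specific to these segments. Genes on none of 2A, 2B and 2D summed to 683463 to 780658 CPM in C40, against 942048 CPM or more in each WT library. As a share of all counts, with no scaling, the 2B start took 1.344% to 1.496% in C40 and 1.796% to 2.015% in WT. The 2D start took 1.799% to 1.867% in C40 and 2.116% to 2.376% in WT. How much of the 2B and 2D sums the most abundant genes carry was not tested. The mean of log2(CPM + 1) moved the other way, by 0.04 against WT and 0.03 against the other lines on 2B. On 2D it moved by 0.10 against WT and 0.05 against the other lines.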

How the data were processed

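Counts per gene and FPKM values per gene were deposited by the authors, who counted reads with featureCounts 1.5.0-p3, per the submitters' processing notes. No source used here names the aligner, the genome build or the strand setting, which leaves genes that overlap, antisense pairs and homoeologs with shared reads uncertain. The deposited FPKM values served for the choice of abundant members and for an alternative, on log2(FPKM + 0.1).

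Counts were scaled by TMM, filtered with filterByExpr (75788 genes left, 1047 of the 1274 members) and fitted over all 12 libraries with 4 group means by the quasi-likelihood test of edgeR 4.0.16 in R 4.3.3, with Benjamini-Hochberg adjustment over all genes tested and a threshold of 0.05. The standard error of a fold change was taken as its size divided by the root of the F statistic. Ratios used group mean CPM plus 0.05. DESeq2 1.42.0 and limma 3.58.1 were alternatives. Domain names are those of the deposited table, and none of its identifiers matched the RefSeq gene table.

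The members, lists and tests were chosen with earlier results of these data known. The named-gene rule took the 10 members below 0.5 of WT with the highest WT FPKM, the 10 most abundant at or above 0.5 and at 1.5 or more of WT, 5 genes on each side of the edge, 3 rising and 3 falling members per line and 5 rising and 5 falling genes per 2B and 2D contrast, by adjusted p. Members named for their ratio to C20 and C22, and the runs, were chosen after their values were seen.

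Replicates never agreed within sampling noise (chi-square per gene of 7.19 to 182). Whether replicate numbers pair libraries was not settled: 9 of 18 same-numbered pairs had residual correlations above 0.1 (-0.52 to 0.58). Every pair of replicates numbered 2 was positive, at 0.16 to 0.58, while pairs numbered 1 and 3 had both signs. The test was run on simulated data with 100 genes lowered 2-fold and 100 lowered 4-fold in C40. Against WT it called 0 and 23 of these, and 0 of 74323 unchanged genes. Far fewer genes changed there than were called in the real contrast, so the simulation does not give the error rate of the real calls. Floors of 3 counts cover counting error only.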

Additional observations from a re-analysis of the deposited data

How the results depend on the processing

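The median log2 level of the 2A members in C40 against WT, -0.90, was -0.91 with RLE size factors, -0.94 with 2 libraries (C20 replicate 3, C40 replicate 1) left out and -0.98 against the mean of C20 and C22. Leaving out each library in turn gave -0.93 to -0.90. The share at or above 0.5 of WT, 54.4%, was 85.2% at a limit of 0.25, 28.2% at 0.75 and 3.86% against C20 and C22, and 52.7% to 54.3% without each library in turn.

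With DESeq2 the counts of changed genes were 278 (2B) and 361 (2D) in C40 against WT, 46 and 66 against the mean of C20 and C22, and 176 (C20) and 293 (C22) among the 2A members. With a replicate block they were 9 (2B) and 8 (2D) against C20 and C22 and 18 for C20, and other counts stayed within 1.5 times, so the block moved only these. With those 2 libraries left out, a choice made after seeing the data, they were 334 (2B) and 440 (2D) in C40 against WT, 281 (C20) and 338 (C22). Leaving out each library in turn gave 61 to 308 (2B) and 75 to 393 (2D) against WT, 4 to 33 and 3 to 40 against C20 and C22, 1 to 191 (C20), 49 to 310 (C22) and 234 to 563 (2A in C40). RLE size factors, no filter, limma on FPKM and scaling without the 2A members kept every count within 1.5 times. The causes were not tested.

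The log2 ratios of summed level in C40 against WT, -0.91 (2B) and -0.77 (2D), and against C20 and C22, -0.26 and -0.19, turned to 0.037, 0.102, 0.032 and 0.054 as means of log2(CPM + 1). Leaving out each library gave -1.02 to -0.81, -0.86 to -0.67, -0.37 to -0.08 and -0.27 to -0.03. Over the named genes tested, 65 of 855 refits lost the call and 0 changed direction. Matching homoeologs by protein was not run, since no protein sequences were used here. Depth limits members below 1 CPM.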

Other observations

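Outside the segment, the bin of 10 Mb with the lowest median ratio of C40 to C20 and C22 among those with at least 20 genes was at 30 to 40 Mb on chromosome 3B, with 30 genes and a median log2 of -0.36. It was lower in all 3 lines than in WT, at a median log2 of -1.18 in C40, -0.51 in C20 and -0.99 in C22. Per library the medians relative to WT were -0.98, -1.22 and -1.35 in C40, -0.54, -1.001 and -0.33 in C20, -1.25, -0.75 and -0.97 in C22 and -0.10, 0.05 and -0.13 in WT. Of its 30 genes, 9 were described with the protease inhibitor, seed storage and lipid transfer domain. The bin was singled out after its values were seen, and none of it was tested.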
